A study of Mus musculus with 15 samples.

Results

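Slc6a11-type astrocytes are a class of astrocyte nuclei in single-nucleus RNA-seq (snRNA-seq) of the mouse dorsal hippocampal formation (dHF), and 2707 nuclei of 134019 barcodes belonged to it. A barcode is the tag of 1 droplet, and each transcript counted in it is a unique molecular identifier (UMI). A nucleus was a member if it had at least 500 genes detected, at least 10 UMIs of the astrocyte genes Slc1a2, Slc1a3 and Gpc5 together, no UMI of Gad1 or Gad2, at most 1 UMI of Slc17a7 and no UMI of Thbs4. Within this gate, which 12713 nuclei passed, Slc6a11, Etnppl and Lrig1 together had to give at least 3 UMIs and more than Gldc, Gm6145 and Gm20713 together. Members were thus chosen by UMI counts measured in the same nuclei. The same rule with these gene sets exchanged gave 5453 Gldc-type nuclei, to which the members were compared, and 776 further astrocyte nuclei had a UMI of Thbs4. The other 4553 nuclei of the gate were of neither type. Summed over these, Snap25 of neurons stood at 588 CPM (UMI counts of a gene scaled to a total of 1000000) and Lhfpl3 of oligodendrocyte precursors at 1807 CPM, against 207 and 224 CPM in members, so the gate is wider than astrocytes.

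The nuclei came from dHF micropunches (labelled Brain, dHpc) of 15 female mice, 1 library per mouse. The 6 nulliparous (NP) mice were virgins matched in age to the others. The 4 control reproductively experienced (RE) mice, labelled ControlPP, had been bred, had given birth and had weaned their pups. The 5 stress RE mice, labelled StressPP, had done the same and in addition had limited nesting material and daily separation from the pups during later lactation. The labels name no allele, transgene or age for any group. The punches can hold cortical, thalamic and ventral hippocampal tissue at their edges, so the place from which an astrocyte came is not known from the labels. The labels give 3 batches, and batch 1 held no control RE mouse. Where differences between groups are given, fewer nuclei of a kind and less RNA per nucleus cannot be told apart in a summed level.

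Libraries held 5789 to 12738 barcodes and 40602582 to 96211264 UMIs. Of 131768 distinct barcode strings, 2211 occurred in more than 1 library, 6 to 47 for a pair of libraries, and none of these was a member in more than 1 library. When the members were clustered among themselves, 5 libraries stood apart: NP mouse 37, control RE mouse 72 and stress RE mice 43, 75 and 77. Between 58.6% and 85.6% of their members fell into 1 sub-cluster, which held at most 8.49% of the members of any other library. These libraries come from batches 2 and 3 and from all 3 groups, and the comparisons of groups, apart from those within batches, were also made without them, which leaves 5 NP, 3 control RE and 2 stress RE mice.

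Slc6a11 encodes GAT-3, a GABA transporter that sits mainly on astrocytes and takes GABA up from around synapses. Etnppl encodes an enzyme that breaks down phosphoethanolamine, and Lrig1 encodes a membrane protein that damps signalling of ErbB receptors. Gldc encodes the glycine decarboxylase of the glycine cleavage system. Astrocytes clear glutamate, GABA and potassium, and they keep marks of the brain region in which they arose, so that astrocytes of the telencephalon and of the diencephalon differ in transcription factors.

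The members carried the genes that mark astrocytes in general. Summed over the members of a mouse, the bicarbonate transporter Slc4a4 stood at 3580 ± 368 CPM (SD, n = 15 mice), the water channel Aqp4 at 279 ± 48.9 CPM and Acsbg1 at 347 ± 29.0 CPM. In nuclei of oligodendrocytes, which should lack these genes, Aqp4 stood at 4.69 CPM and Acsbg1 at 2.05 CPM. The genes that chose the members were at 1521 ± 165 CPM for Slc6a11, 369 ± 79.5 CPM for Etnppl and 659 ± 90.3 CPM for Lrig1. They are the rule's own genes, so these levels describe the choice and nothing more. Aldh1a1, a further marker of the class that the rule did not use, was at 718 ± 121 CPM in members and 423 ± 76.1 CPM in Gldc-type nuclei, higher in members in 15 of 15 mice. In the mm10 reference (GRCm38), Slc6a11 lies on chromosome 6 from 114131241 to 114249952, Lrig1 on chromosome 6 from 94604529 to 94700158 and Etnppl on chromosome 3 from 130617448 to 130637521. All 3 are protein-coding.

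A UMI of Slc6a11 was found in 98.4% of members, 54.1% of Gldc-type nuclei and 2.39% of oligodendrocyte nuclei, the last of which gives the level of free RNA. The median member of a mouse had 2799 to 5457 UMIs, the median Gldc-type nucleus 2788 to 5872 and the median oligodendrocyte nucleus 1946 to 4055. The rule was not a sharp border. The 3 chosen genes summed to exactly 3 UMIs in 142 members, 176 nuclei fell just outside with a sum of 2, 256 members led the opposing genes by 1 UMI, and 216 nuclei were tied. The median member had 11 UMIs of the chosen genes and 4 of the opposing ones.

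Beyond the genes of the rule, members differed from Gldc-type nuclei in genes that carry regional identity, among others. Levels were compared within each mouse as the log2 ratio of CPM + 1 and are given without a test, since the nuclei were sorted into the types by their own transcripts. Of 7438 genes at 20 CPM or more in either type, 137 (1.84%) were at least 2-fold higher in members on average and higher in every mouse, and 183 (2.46%) were at least 2-fold lower and lower in every mouse. Whatever the size of the difference, 448 (6.02%) were higher in members in every mouse and 415 (5.58%) lower in every mouse, and counts of a list by that criterion are to be read against these shares. Over all 7438 genes the median log2 ratio was -0.04. The counts for both directions came to 320 genes, and to 342 without the 5 libraries that stood apart. Without the nuclei that held a UMI of the precursor genes Pdgfra, Cspg4 or Neu4, 126 genes were higher and 145 lower. Of the 6 listed markers of oligodendrocyte precursors, 5 were at least 2-fold lower in members on average and lower in every mouse (median log2 ratio -2.37).

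Among the 15 named genes higher in members were transcription factors of the diencephalon and midbrain. Otx2 was at 41.4 ± 9.92 CPM in members and 6.81 ± 7.06 CPM in Gldc-type nuclei, a mean log2 difference of 2.70 (SD over mice 0.70). Irx5 was at 29.3 ± 7.00 CPM against 4.45 ± 2.15 CPM, Meis1 at 257 ± 33.1 CPM against 43.3 ± 15.4 CPM and Pax3, a paired-box factor of the dorsal neural tube, at 61.7 ± 28.3 CPM against 6.33 ± 3.25 CPM. Agt, which encodes angiotensinogen and is most abundant in astrocytes outside the telencephalon, was at 102 ± 33.7 CPM against 19.4 ± 9.03 CPM. Lgr6, a receptor for R-spondins that enhances Wnt signalling, was at 126 ± 44.4 CPM against 15.5 ± 11.0 CPM, and Gli1, the transcription factor whose level follows Hedgehog signalling, was at 52.0 ± 21.8 CPM against 11.7 ± 8.43 CPM. The cadherin Cdh22 and the chloride channel Ano1 were also among them, with mean log2 differences of 2.79 and 2.55. The other named genes of this direction were non-coding RNAs. The largest log2 difference was that of B230323A14Rik (chromosome 9 from 69758740 to 69830845, annotated as antisense), at 450 ± 64.0 CPM against 46.9 ± 27.3 CPM. Gm35722, Gm29683, Fzd10os, A330076C08Rik and Otx2os1 followed with mean log2 differences of 2.38 to 3.49.

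The 15 named genes lower in members were led by Emx2, a homeobox factor that patterns cortex and hippocampus, at 1.96 ± 1.82 CPM in members and 35.8 ± 12.2 CPM in Gldc-type nuclei. A UMI of Emx2 was present in 0.924% of members and in 0.630% of oligodendrocyte nuclei, close to the level of free RNA, and in 12.7% of Gldc-type nuclei. Hopx, a homeodomain protein of hippocampal astrocytes and radial glia, was at 3.52 ± 1.93 CPM against 48.5 ± 13.4 CPM, and Lama3, a laminin chain, was at 5.39 ± 5.04 CPM against 63.1 ± 13.2 CPM. Emx2os, the antisense partner of Emx2, was at 14.3 ± 8.32 CPM against 122 ± 27.1 CPM. Lypd6, Adamts16, Emid1, Otc and the non-coding RNAs C030018K13Rik, D630033O11Rik and E330013P04Rik were lower by a mean log2 difference of -3.75 to -3.09. The remaining 4 named genes were Pdgfra and Neu4, which mark oligodendrocyte precursors, and Gm38505 and Gm42948. When nuclei with a UMI of Pdgfra, Cspg4 or Neu4 were left out of both types, the log2 difference of Gm38505 went from -3.59 to -1.02 and that of Gm42948 from -3.11 to -0.72, while that of Emx2 was -4.01 and that of Otx2 was 2.82. Leaving out these nuclei sets Pdgfra and Neu4 to 0 in both types by construction and says nothing of them. With all nuclei, Pdgfra stood at 10.9 ± 9.07 CPM in members and 93.9 CPM in Gldc-type nuclei.

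Read by list, the regional genes divided the types in opposite directions. Of 13 genes listed for the diencephalon, 7 were at 20 CPM or more in either type, with a median log2 ratio of 2.12. Among these, 5 were at least 2-fold higher in members on average and higher in every mouse (1.84% of all genes). They were Agt, Irx5, Otx2, Zic4 and Slc6a9. Agt, Irx5 and Otx2 are also among the genes named above, and Slc6a9 is counted again below under glycine and serine handling. The lists were chosen with earlier results of these data known, so their counts are a description. Tcf7l2, a Wnt effector typical of thalamus, was at 659 ± 80.5 CPM in members and 393 ± 40.7 CPM in Gldc-type nuclei and was higher in 15 of 15 mice. Zic2 and Zic5, also on that list, were at 9.52 ± 5.49 and 8.83 ± 4.22 CPM in members and at 13.7 ± 4.50 and 16.5 ± 4.91 CPM in Gldc-type nuclei. Of 10 genes listed for the telencephalon, 7 were at 20 CPM or more, with a median log2 ratio of -1.30. Among these, 4 were at least 2-fold lower in members on average and lower in every mouse (2.46% of all genes). Lhx2, which patterns cortex and hippocampus, was at 9.81 ± 4.92 CPM against 62.2 ± 19.9 CPM.

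**Figure D1:**
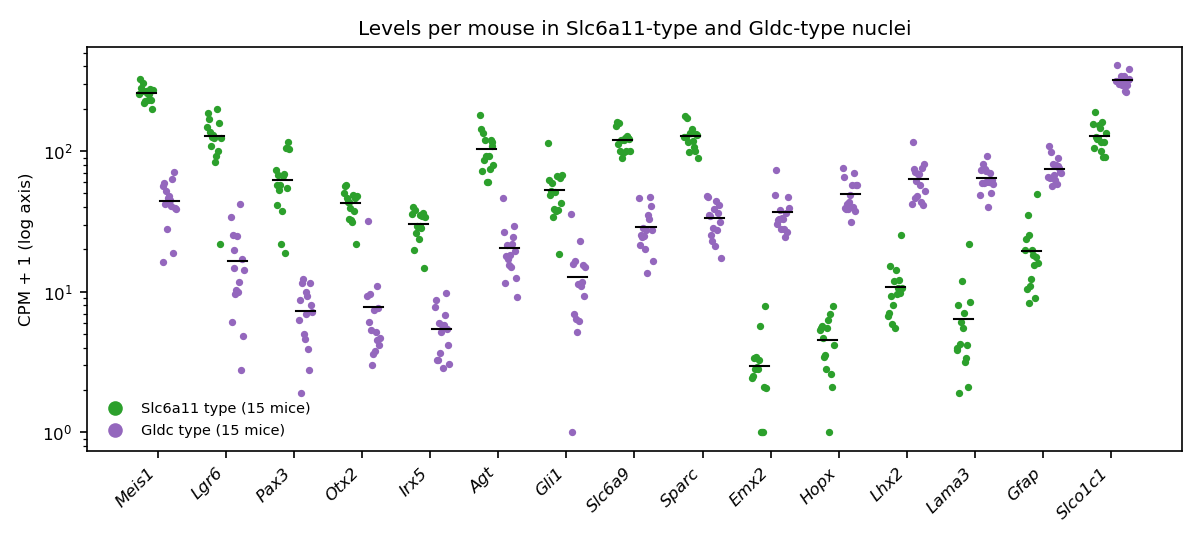
Level of 15 genes in each of 15 mice, as CPM + 1 on a log axis, in Slc6a11-type nuclei (green) and Gldc-type nuclei (purple), with the mean as a black bar. Meis1 to Sparc sit higher in the Slc6a11 type, for example Otx2 at a mean of 41.4 against 6.81 CPM, and Emx2 to Slco1c1 sit lower, for example Hopx at 3.52 against 48.5 CPM.

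Compared with the Thbs4-positive nuclei, taken from the 14 mice with at least 10 of them, the regional genes stood in the same way. The log2 difference between members and Thbs4-positive nuclei was 4.47 for Otx2, 5.10 for Pax3, 4.73 for Irx5, -3.69 for Emx2 and -3.84 for Hopx. Gfap, the intermediate filament of fibrous astrocytes, was at 18.4 ± 10.9 CPM in members, 74.0 ± 14.8 CPM in Gldc-type nuclei and 135 CPM in Thbs4-positive nuclei. Osmr, the oncostatin M receptor, was at 0.860 ± 1.27 CPM in members and 7.89 ± 2.62 CPM in Gldc-type nuclei. Of 17 genes listed for reactive astrocytes, Lcn2 and Hspb1 had no UMI in 2707 members, which allows a share of members with a UMI of up to 0.111%, and the whole list summed to 80.7 to 163 CPM per mouse.

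Of the general astrocyte list, 14 genes outside the rule were at 20 CPM or more, and 8 of them were higher and 1 lower in members in every mouse (6.02% and 5.58% of all genes), with a median log2 ratio of 0.52. The functional lists that follow are to be read beside this. Among genes for the handling of GABA, Abat, the GABA transaminase that degrades GABA, was at 265 ± 44.4 CPM in members and 125 ± 17.2 CPM in Gldc-type nuclei. Gabbr2, a subunit of the GABA-B receptor, was at 652 ± 88 CPM against 218 ± 69.1 CPM. Gabrb1, a GABA-A receptor subunit, was close in the types, at 3088 ± 338 and 3192 ± 329 CPM. Of 13 genes of the GABA list outside the rule and at 20 CPM or more, 5 were higher in members in every mouse and none was lower in every mouse, where 6.02% and 5.58% of all genes were. The median log2 ratio of these 13 was 0.30.

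The glutamate genes went both ways. Slc1a2 and Slc1a3, the glutamate transporters GLT-1 and GLAST, were at 3246 ± 268 and 996 ± 102 CPM in members and at 6086 ± 1197 and 1687 ± 340 CPM in Gldc-type nuclei, but they are genes of the gate that both types share. Gria1, an AMPA receptor subunit, was at 2229 ± 207 CPM in members and 700 ± 203 CPM in Gldc-type nuclei. Grin2c, the NMDA receptor subunit typical of astrocytes, was at 121 ± 23.3 CPM against 261 ± 55.4 CPM, and the metabotropic receptor Grm3 was at 841 ± 111 CPM against 1208 ± 210 CPM. Slc7a11, the cystine-glutamate exchanger, was at 316 ± 59.3 CPM against 179 ± 35.6 CPM. In the 14 genes of this list outside the rule, 3 were higher and 4 lower in every mouse (6.02% and 5.58% of all genes), and the median log2 ratio was -0.16.

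Of 7 genes of glycine and serine handling outside the rule and at 20 CPM or more, 2 were higher in members in every mouse (6.02% of all genes) and none was lower in every mouse (5.58%), with a median log2 ratio of -0.09. Both were transporters. Slc6a9, which encodes the glycine transporter GlyT1, was at 120 ± 22.1 CPM in members and 27.9 ± 9.92 CPM in Gldc-type nuclei, and Slc7a10, the exchanger of small neutral amino acids including serine and glycine, was at 236 ± 48.1 CPM against 131 ± 26.4 CPM. Gldc itself was a gene of the rule. Amt and Gcsh, which encode other parts of the glycine cleavage system, were at 14.1 ± 4.49 and 8.32 ± 4.51 CPM in members and at 13.6 ± 3.95 and 7.94 ± 3.55 CPM in Gldc-type nuclei, differences within the spread over mice.

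Of 16 genes for ion and water handling at 20 CPM or more, 7 were higher in members in every mouse (6.02% of all genes) and 1, the chloride channel Clcn2, was lower (5.58%), with a median log2 ratio of 0.35. Kcnj10, the inward rectifier Kir4.1 through which astrocytes buffer potassium, was at 293 ± 62.2 CPM against 115 ± 25.2 CPM. Kcnd2, a potassium channel of the Kv4 family, was at 4508 ± 388 CPM against 2096 ± 453 CPM, and Slc4a4 was at 3580 ± 368 CPM against 1671 ± 153 CPM. The connexin Gjb6 was at 137 ± 19.1 CPM against 75.6 ± 17.5 CPM, while the connexin Gja1 was at 294 ± 65.5 CPM against 256 ± 58.4 CPM.

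Of 13 genes of growth factor and Notch receptors and Lrig proteins outside the rule, 3 were higher and 2 lower in members in every mouse. For all genes these shares were 6.02% and 5.58%, and the median log2 ratio of the 13 was -0.08. Erbb4, a receptor for neuregulins, was at 2866 ± 363 CPM in members and 988 ± 223 CPM in Gldc-type nuclei. It was also at 1887 CPM in oligodendrocyte nuclei, so a high level was not particular to astrocytes. Egfr was at 411 ± 76.4 CPM against 215 ± 33.3 CPM, and Lrig3, a relative of Lrig1, was at 45.1 ± 8.89 CPM against 15.6 ± 3.04 CPM, whereas Lrig2 was at 73.5 ± 11.2 CPM against 77.4 ± 7.49 CPM. Fgfr1 was at 165 ± 30.4 CPM against 252 ± 62.2 CPM and lower in every mouse.

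Of 7 genes of retinoid and thyroid hormone handling at 20 CPM or more, 3 were lower and 1, Aldh1a1, was higher in members in every mouse (5.58% and 6.02% of all genes), with a median log2 ratio of -0.04. Slco1c1 and Dio2 were among the lower ones. Slco1c1, a transporter that brings thyroid hormone into the brain, was at 128 ± 28.2 CPM in members and 318 ± 37.9 CPM in Gldc-type nuclei. Dio2, the deiodinase that activates the hormone, was at 40.6 ± 10.2 CPM against 69.4 ± 11.0 CPM. The receptor genes Thra and Thrb were at 109 ± 11.6 and 597 ± 59.4 CPM against 108 ± 17.3 and 506 ± 79.0 CPM. Of 13 genes of synapse formation, engulfment and matrix, 2 were higher and 4 lower in members in every mouse (6.02% and 5.58% of all genes). Their median log2 ratio was -0.21. Sparc and Sparcl1 were at 126 ± 24.4 and 1339 ± 180 CPM in members and at 32.4 ± 9.51 and 758 ± 119 CPM in Gldc-type nuclei. Tnc and Gpc6 were at 21.4 ± 12.0 and 465 ± 80.5 CPM against 70.8 ± 16.1 and 851 ± 112 CPM.

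**Figure D2:**
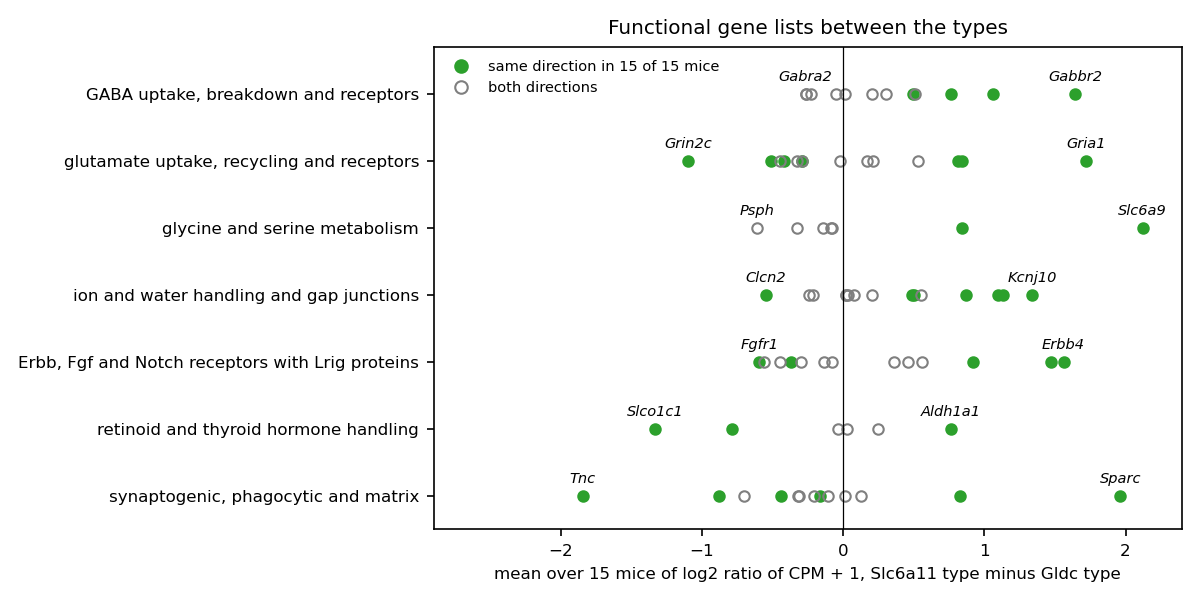
Mean over 15 mice of the log2 ratio of CPM + 1 between Slc6a11-type and Gldc-type nuclei for genes of 7 functional lists, leaving out the genes of the rule, a few that are not reported and those under 20 CPM in both types. Filled points went the same way in all 15 mice, and the named genes mark the ends of each list, for example Gabbr2 at 1.64 and Grin2c at -1.10.

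The members were not uniform. Clustered among themselves, they fell into 10 sub-clusters, of which 4 held over 400 nuclei each. Sub-cluster 3 (532 nuclei) was led by Pax3, Mecom, Sfrp5 and Shroom3, and sub-cluster 2 (639 nuclei) by Lgr6, Unc13c, Foxb1 and Fzd10. Pax3 was at 167 CPM in sub-cluster 3 and 16.5 CPM in sub-cluster 2, and Lgr6 was at 34.5 and 278 CPM. Slc6a11 stood at 1924 and 1786 CPM in them, Otx2 at 44.2 and 52.9 CPM and Tcf7l2 at 747 and 763 CPM. These 3 genes thus differed little between sub-clusters that Pax3 and Lgr6 set apart. The sub-clusters were defined by variable genes of these same nuclei, without the genes of the rule and mitochondrial genes, so the values are a description.

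Nuclei were also counted without the clusters, with 4 genes chosen after their values were seen: Pax3, Mecom, Lgr6 and Foxb1. A UMI of Pax3 or Mecom was present in 532 members and one of Lgr6 or Foxb1 in 959, and 1316 members had neither. Both were present in 100 members, 18.8% of those with the first pair and 10.4% of those with the second. A UMI of Pax3 or Mecom was present in 6.37% to 34.0% of the members of a mouse, and one of Lgr6 or Foxb1 in 12.7% to 57.3%. The mouse with the lowest share of the first pair, stress RE mouse 43, had the highest share of the second, and stress RE mouse 77, with 63 members, had a share of 33.3% of the first and the lowest share of the second.

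Sub-cluster 6 (142 nuclei) differed from the rest in regional genes. Its Lhx2 was at 70.6 CPM, its Gfap at 174 CPM and its Gldc at 127 CPM, and its Slc6a11 was at 888 CPM. It was led by Gm29260, Myoc and the cell cycle gene Cenpf, with Lama3 and the ependymal gene Tmem212 also among its leading 10 genes, and it was present in all 15 mice at 0.909% to 12.3% of their members. It made up 5.25% of members.

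Sub-clusters 5, 7, 8, 9 and 10, with 322 members in all (11.9%), were those in which Scrublet marked nuclei most often, and they carried genes of other cells. Sub-cluster 5 had Fa2h, an enzyme of myelin lipid synthesis, among its leading genes, sub-cluster 7 held 8250 CPM of the neuronal RNA Meg3, sub-cluster 9 (30 nuclei) was led by the microglial genes Inpp5d, Runx1 and Ikzf1, and sub-cluster 10 by Itga9, Kcnh8, C1ql1 and Pdgfra. Sub-cluster 8 was led by Stra6, Ntf3, Plk5 and non-coding RNAs, and its Snap25, a gene of neurons, stood at 436 CPM against 207 CPM in all members. Its median nucleus had 9861 UMIs, against 4001 over all members, and Scrublet marked 95.5% of its nuclei, the highest share. Scrublet, which scores a barcode by its likeness to simulated pairs of nuclei, marked 35.0% to 95.5% of the nuclei of these sub-clusters and 9.64% of all members. Sub-cluster 1 (646 nuclei) was the one in which the members of the 5 libraries that stood apart gathered, and Meg3 was at 355 CPM in it. Its leading genes were mostly non-coding RNAs and predicted genes. So were those of sub-cluster 4 (426 nuclei), in which Pax3 was at 44.8 CPM, Lgr6 at 139 CPM and Otx2 at 59.3 CPM.

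**Figure D3:**
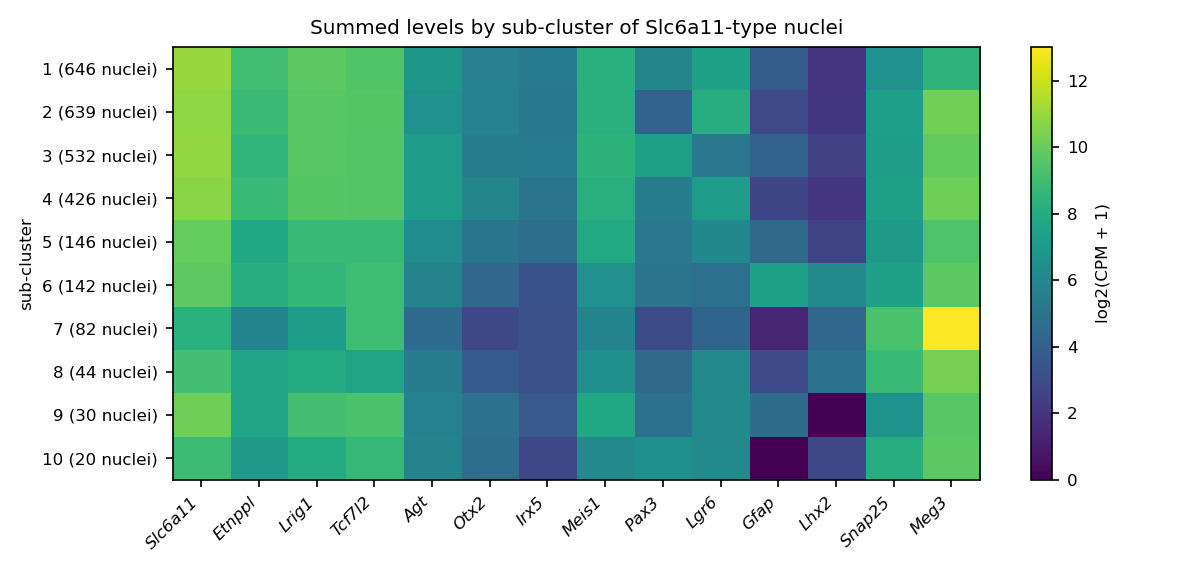
Summed level of 14 genes, as log2(CPM + 1), in the 10 sub-clusters of Slc6a11-type nuclei, with the number of nuclei of each. Pax3 and Lgr6 alternate between sub-clusters 3 and 2, Lhx2 and Gfap are highest in sub-cluster 6, and Meg3 is highest in sub-cluster 7.

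Members made up 9.71% to 32.9% of the gated nuclei of a mouse. In NP mice the lowest share was 11.6%, the median 27.6% and the highest 32.9%. In control RE mice the shares were 21.9%, 10.5%, 24.5% and 14.0%, and in stress RE mice they were 20.9%, 24.6%, 22.5%, 9.71% and 20.4%. The groups overlapped, and the lowest mouse of each was in batch 2. For the mouse with the lowest share the 95% Wilson interval ran from 7.66% to 12.2%, and that of the highest from 28.6% to 37.4%, intervals that cover counting error only.

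No difference in this share between groups passed the test. Its mean was 26.2% ± 7.77 (SD, 6 mice) for NP, 17.7% ± 6.57 (4 mice) for control RE and 19.6% ± 5.79 (5 mice) for stress RE. Control RE minus NP gave -8.44 points of share (exact permutation over mice, two-sided, p = 0.105, adjusted p = 0.325 over 6 tests). Within batch 2 it was -8.30 and within batch 3 -5.55 points, a mean of -6.93 points (exact permutation within batches, p = 0.167). The difference between stress RE and NP was -6.52 points (exact permutation p = 0.165, adjusted p = 0.329) and that between stress RE and control RE was 1.91 points (exact permutation p = 0.730, adjusted p = 0.810). Within batches 2 and 3 the difference between stress RE and NP was -5.48 and -7.05 points (mean -6.26, exact permutation p = 0.222), and that between stress RE and control RE was 2.82 and -1.49 points (mean 0.663, exact permutation p = 0.944). With 36 orderings within batches, the smallest p possible was 0.0556. Among all barcodes with at least 500 genes, members were 2.47% ± 0.771, 1.83% ± 0.946 and 1.73% ± 0.575, again without a difference that passed the test (smallest adjusted p = 0.325 by exact permutation). Without NP mouse 35, the lowest of its group, the difference was -11.4 points for control RE against NP (exact permutation p = 0.0159, unadjusted) and -9.44 points for stress RE against NP (exact permutation p = 0.00794, unadjusted). Without control RE mouse 72 the difference between stress RE and control RE turned to -0.498 points. Without the 5 libraries that stood apart the differences were -6.12 points (exact permutation p = 0.321), -3.72 points (exact permutation p = 0.667) and 2.4 points (exact permutation p = 0.8) for control RE against NP, stress RE against NP and stress RE against control RE.

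**Figure D4:**
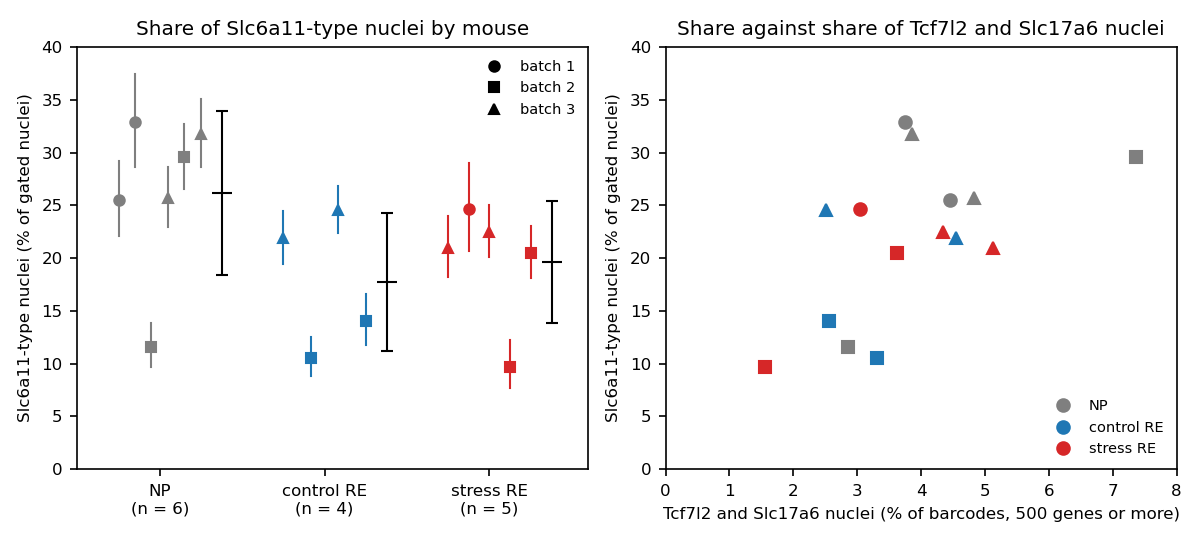
Left, share of Slc6a11-type nuclei among gated nuclei in each mouse, with the 95% Wilson interval as a vertical line and the group mean ± SD in black. Right, the same share against the share of nuclei with at least 3 UMIs of Tcf7l2 and 2 of Slc17a6; colours give the group and symbols the batch. The lowest mice of each group, at 11.6%, 10.5% and 9.71%, are all in batch 2.

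Since punches can hold thalamus, the share of members was set against the share of nuclei with at least 3 UMIs of Tcf7l2 and 2 of Slc17a6, genes that thalamic neurons express together. Such nuclei were 1.55% to 7.36% of barcodes. Over 15 mice Pearson's r was 0.558 (permutation p = 0.0286, adjusted p = 0.0430 over the 3 denominators tried) and Spearman's rho was 0.521 (permutation p = 0.0489, adjusted p = 0.0736). Without the mice farthest from the median share of such nuclei, mice 63 and 77, r was 0.356 (permutation p = 0.231), so the relation rested on those mice. Within batch 2, which holds both of those mice, r was 0.919 (n = 6, exact permutation p = 0.0181) and Spearman's rho 0.771 (exact permutation p = 0.103). Within batch 3 r was -0.340 (n = 6, exact permutation p = 0.469). The value of batch 2 is thus not separate from that of mice 63 and 77, and batch 3 did not show the relation. With the members taken as a share of all barcodes with at least 500 genes, r was 0.574 (permutation p = 0.0224, adjusted p = 0.0430). Both shares then have the same denominator, and what this adds to r was not tested. With the members taken as a share of both types, r was 0.379 (permutation p = 0.166), and without the 5 libraries that stood apart it was 0.477 (n = 10, permutation p = 0.170).

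Group differences in gene levels were tested on the summed counts of the members of each mouse with edgeR's quasi-likelihood test and Benjamini-Hochberg adjustment over 9832 genes. No gene passed an adjusted p of 0.05 in any of the 3 comparisons (0% of genes tested in each). Unadjusted p was under 0.05 for 577 genes (5.87%) between control RE and NP, 439 (4.47%) between stress RE and control RE and 317 (3.22%) between stress RE and NP. DESeq2 called 1 gene, Kcnj10, between control RE and NP and none in the other comparisons. Without a filter on low counts, which left 22383 genes, edgeR called 12 genes between control RE and NP, among them Kcnj10, Gpr37l1, Grik3, Syt7 and A830018L16Rik, and 1 gene in each of the other comparisons. Members supplied 288300 to 1563771 UMIs per mouse, so the precision was uneven. Without the 5 libraries that stood apart no gene was called in any comparison either. The genes named from here on did not pass the test in members. Their values are given because they had the 5 lowest p-values in each direction of a comparison, or because they belong to a list, in which case the examples were chosen after their values were seen.

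Kcnj10 had the lowest p of the comparison of control RE with NP. Its level in NP mice was lowest at 281 CPM, median at 356 CPM and highest at 391 CPM, and in control RE mice it was 243, 228, 200 and 213 CPM. In stress RE mice it was 313, 315, 255, 229 and 301 CPM. The control RE mice did not overlap with the NP mice, as was the case for 114 of 9832 genes (1.16%), and the stress RE mice lay between and overlapped with both. The log2 difference was -0.62 (SE 0.12, edgeR adjusted p = 0.570, DESeq2 adjusted p = 0.0262). Within batches 2 and 3 the log2 ratio of the means was -0.70 and -0.48. Without the 5 libraries that stood apart the log2 difference was -0.66, and in Gldc-type nuclei it was -0.28 (SE 0.17). Oligodendrocyte nuclei also carried Kcnj10, at 95.2 CPM.

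Plpp3, a phosphatase of the membrane that acts on lysophosphatidic acid and related lipids, was named in 2 comparisons. It was lowest at 910 CPM, median at 1046 CPM and highest at 1393 CPM in NP mice, at 751, 747, 744 and 667 CPM in control RE mice and at 1183, 1150, 968, 784 and 989 CPM in stress RE mice. Every control RE mouse lay below every other mouse. Control RE did not overlap with NP in 114 of 9832 genes (1.16%), nor with stress RE in 131 (1.33%). Plpp3 was chosen by its low p, which favours such a separation. The log2 difference was -0.54 (SE 0.13, edgeR adjusted p = 0.814) for control RE against NP and 0.47 (SE 0.13, edgeR adjusted p = 1.00) for stress RE against control RE. As both comparisons use the same control RE mice, they are not independent. Without the 5 libraries that stood apart the differences were -0.58 and 0.59. Plpp3 is on the general astrocyte list. Of its 17 genes, 15 were negative between control RE and NP (median -0.20) and 12 positive between stress RE and control RE (median 0.12). The part of that shift in the differences of Plpp3 was not tested.

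The other genes lower in control RE than in NP by lowest p were Gpr37l1, an orphan receptor of astrocytes, at 100 ± 20.0 CPM (n = 4) against 204 ± 98.6 CPM (n = 6), the urea transporter Slc14a1 at 21.4 ± 9.18 against 41.0 ± 8.69 CPM and Bcat2, the mitochondrial branched-chain aminotransferase, at 27.7 ± 3.03 against 43.3 ± 6.78 CPM. Higher in control RE by lowest p was Grik3, a kainate receptor subunit, at 35.3, 36.4, 71.5 and 39.1 CPM in control RE mice and at 4.51 to 27.7 CPM in NP mice, a log2 difference of 1.41 (SE 0.32, edgeR adjusted p = 0.809) and of 1.44 without the 5 libraries that stood apart. Syt7, a synaptotagmin, was at 122 ± 22.0 against 62.5 ± 18.2 CPM, Kif5c, a kinesin, at 90.8 ± 7.68 against 56.9 ± 10.8 CPM, Eif4e3, a cap-binding protein, at 18.0 ± 6.94 against 6.23 ± 2.27 CPM and A830018L16Rik at 104 ± 35.3 against 45.2 ± 13.2 CPM. In the gated nuclei of neither type, Grik3 was at 109 CPM, Syt7 at 370 CPM, Kif5c at 222 CPM, A830018L16Rik at 141 CPM and Eif4e3 at 29.3 CPM, in each case above the level in members.

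The markers of neurons differed in the same direction. The 10 listed neuron genes summed to 2956 to 3756 CPM in the members of control RE mice, 1430 to 3285 CPM in NP and 1707 to 3486 CPM in stress RE mice, with Gad1 and Gad2 at 0 by the rule. Slc17a7, which the rule holds to at most 1 UMI per nucleus, is among the 8 tested. All 8 that were tested had a positive log2 difference between control RE and NP (median 0.37, against 0.00 over all genes) and a negative one between stress RE and control RE (median -0.34). None was called, and 4 and 3 of the 8 had an unadjusted p under 0.05, as had 5.87% and 4.47% of all genes. The 6 markers of dentate granule neurons summed to 495 to 1314 CPM, and the 5 of them that were tested had a positive log2 difference between control RE and NP (median 0.50) and a negative one between stress RE and control RE (median -0.59). The 8 markers of thalamic neurons summed to 711 to 1620 CPM, with 5 of 7 positive between control RE and NP (median 0.17) and 5 of 7 negative between stress RE and control RE (median -0.17). This list includes Tcf7l2, which was higher in members than in Gldc-type nuclei, so its sum does not gauge neuronal RNA alone. The 8 oligodendrocyte genes summed to 339 to 1626 CPM and went the other way, with 8 of 8 negative between control RE and NP and 8 of 8 positive between stress RE and control RE. Markers of oligodendrocyte precursors summed to 118 to 597 CPM, of microglia to 35.0 to 176 CPM, of vascular cells to 43.9 to 143 CPM and of ependymal cells and choroid plexus to 3.19 to 465 CPM per mouse. The 4 microglial genes tested were all positive between control RE and NP (median 0.29), and 2 of 4 were positive between stress RE and control RE (median -0.04). Of the 6 precursor genes, 4 were positive between control RE and NP (median 0.47) and 4 negative between stress RE and control RE (median -0.27). The part of all these markers in the differences between groups was not tested. When the 5 libraries that stood apart were left out, the neuron genes were positive in 7 of 8 between control RE and NP (median 0.36) and negative in 7 of 8 between stress RE and control RE (median -0.48). The oligodendrocyte genes stayed negative in 8 of 8 between control RE and NP (median -0.32), but between stress RE and control RE 6 of 8 were then negative, with a median of -0.08 against 0.56 with all libraries. The microglial genes were then positive in 4 of 4 between control RE and NP (median 0.58) and negative in 4 of 4 between stress RE and control RE, with a median of -1.13 and an unadjusted p under 0.05 for 3 of them. The precursor genes had medians of 0.01 and 0.02 in these comparisons. The thalamic genes had medians of 0.01 and -0.41, and 3 of 7 had an unadjusted p under 0.05 in the latter, where 3.93% of all genes had. Without the barcodes marked by Scrublet or over 5% mitochondrial UMIs, no gene was called in any comparison. The unadjusted edgeR p was then under 0.05 for 237 of 8571 genes between control RE and NP. It was for 312 between stress RE and control RE and for 285 between stress RE and NP. With all members these counts were 577, 439 and 317 of 9832 genes.

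Among the 5 genes of lowest p in the negative direction between stress RE and control RE was Fkbp5. This co-chaperone of the glucocorticoid receptor that the receptor induces was at 33.5, 27.3, 30.7 and 63 CPM in control RE mice and at 14.4, 9.56, 17.7, 10.4 and 23.6 CPM in stress RE mice. In NP mice it was lowest at 11.5 CPM, median at 23 CPM and highest at 33.2 CPM. The control RE and stress RE mice did not overlap, as was the case for 131 of 9832 genes (1.33%), and NP mice overlapped with both. The log2 difference between stress RE and control RE was -1.21 (SE 0.31, edgeR adjusted p = 1.00), and within batches 2 and 3 the log2 ratio of the means was -1.36 and -0.96. Without the 5 libraries that stood apart the log2 difference of Fkbp5 was -1.14, and in Gldc-type nuclei it was -0.55 (SE 0.195). The median of the microglial genes was -1.13 without those libraries and -0.04 with all libraries, where 2 of 4 were positive. Fkbp5 was also at 41.9 CPM in the gated nuclei of neither type and at 52.0 CPM in oligodendrocyte nuclei, above its mean in the members of either group.

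Zbtb16, a zinc finger factor induced by glucocorticoids, was at 198, 214, 258 and 308 CPM in control RE mice and at 102, 228, 109, 97.1 and 142 CPM in stress RE mice. In NP mice it was lowest at 113 CPM, median at 185 CPM and highest at 247 CPM. Stress RE mouse 70, the batch 1 mouse of its group, overlapped with control RE, and the other 4 stress RE mice lay below it. The log2 difference was -0.85 (SE 0.23, edgeR adjusted p = 1.00), and -0.44 without the 5 libraries that stood apart, which hold 3 of the 4 low stress RE mice. Restricted to batches 2 and 3 with batch as a term, the only gene called between stress RE and control RE was Zbtb16, at a log2 difference of -1.12 (edgeR adjusted p = 0.0399). In Gldc-type nuclei, tested over 12524 genes with all 15 mice and no term for batch, Zbtb16 fell by 1.01 on the log2 scale (SE 0.16, edgeR adjusted p = 0.0287). It was 1 of 3 genes called there (0.024%), 2 of them higher in stress RE, and 2 genes were called between stress RE and NP (0.016%) and none between control RE and NP. No gene was called in Gldc-type nuclei in any comparison without the 5 libraries that stood apart (unadjusted p under 0.05 for 351 of 12636 genes between control RE and NP, 285 between stress RE and control RE and 274 between stress RE and NP), and the log2 difference of Zbtb16 was -0.83 (edgeR adjusted p = 1.00).

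Of 14 genes listed as glucocorticoid-responsive, 10 were tested, and 7 had a negative log2 difference between stress RE and control RE, with a median of -0.37 against 0.00 over all genes. None was called, and 5 of the 10 (Fkbp5, Zbtb16, Tsc22d3, Klf9 and Hif3a) had an unadjusted p under 0.05, as had 4.47% of all genes. Between stress RE and NP 8 of the 10 were negative (median -0.27), 2 of them with an unadjusted p under 0.05 (3.22% of all genes). Leaving out the 5 libraries that stood apart, 9 of the 10 were negative between stress RE and control RE, with a median of -0.44. Among the 10, 3 then had an unadjusted p under 0.05 (3.93% of all genes). Between stress RE and NP 8 of the 10 were then negative (median -0.29), and 0 had an unadjusted p under 0.05 (3.39% of all genes). Klf9 was at 211 ± 15.6 CPM in control RE against 171 ± 17.3 CPM in stress RE mice and Tsc22d3 at 105 ± 20.0 and 80.2 ± 13.7 CPM. The metallothioneins Mt1 and Mt2, on the same list, were at 92.3 ± 28.9 and 28.6 ± 3.98 CPM in control RE against 99.5 ± 40.5 and 35.1 ± 13.1 CPM in stress RE mice. The list summed to 934 to 996 CPM in control RE, 630 to 862 CPM in stress RE and 776 to 1050 CPM in NP mice. The receptors themselves, Nr3c1 and Nr3c2, were at 231 ± 53.3 and 765 ± 59.6 CPM in control RE against 267 ± 21.2 and 819 ± 102 CPM in stress RE mice.

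**Figure D5:**
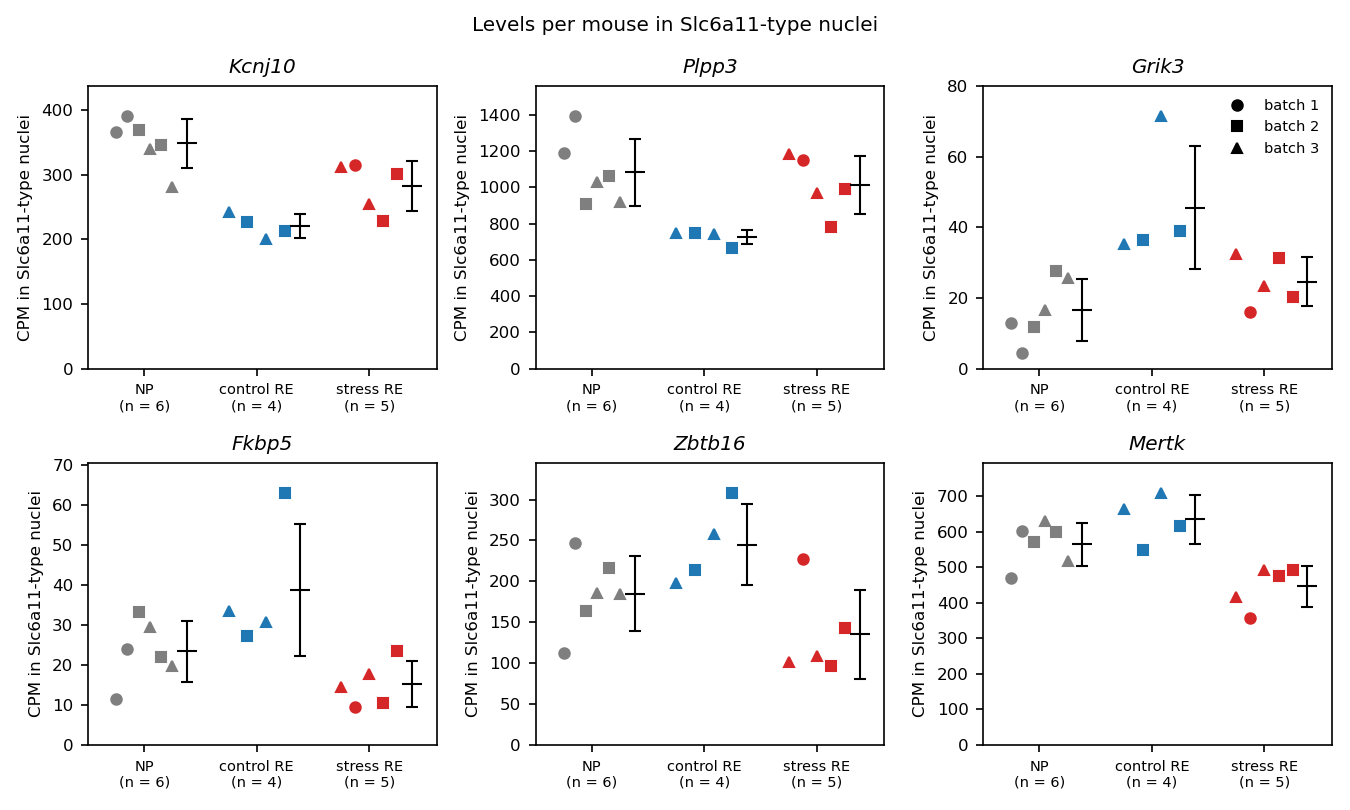
Level of 6 genes in Slc6a11-type nuclei, in CPM, for each mouse by group, with the group mean ± SD in black and the batch as the symbol. Kcnj10 and Plpp3 sit lowest and Grik3 highest in control RE mice, and Fkbp5 sits at 9.56 to 23.6 CPM in stress RE mice against 27.3 to 63 CPM in control RE mice; no gene passed the adjusted test.

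Mertk, a receptor with which astrocytes engulf synapses, was at 665, 549, 709 and 617 CPM in control RE against 417, 358, 491, 475 and 491 CPM in stress RE mice, a log2 difference of -0.53 (SE 0.12, edgeR adjusted p = 1.00), and NP mice ranged from 470 to 629 CPM. Without the 5 libraries that stood apart the difference was -0.62. The microglial genes were then negative in 4 of 4, against 2 of 4 with all libraries. Their part in the differences of Fkbp5 and Mertk was not tested. Kdm3a, a histone H3 lysine 9 demethylase, was at 133 ± 16.5 against 92.7 ± 7.18 CPM, Oxr1, which protects against oxidative stress, at 386 ± 49.1 against 269 ± 38 CPM and Gfod1 at 78.1 ± 5.92 against 52.1 ± 12.2 CPM, in each case without overlap. Such a lack of overlap held for 131 of 9832 genes (1.33%), and choice by low p favours it. In the gated nuclei of neither type Oxr1 was at 830 CPM and Gfod1 at 124 CPM, and in oligodendrocyte nuclei they were at 711 and 129 CPM, above the members in each case. The 8 neuron markers tested were likewise all negative between stress RE and control RE, and their part in these differences was not tested. Higher in stress RE by lowest p were Gpr37, Iscu, which builds iron-sulphur clusters, AW011738 and Pcyt1a, an enzyme of phosphatidylcholine synthesis, with log2 differences of 0.65 to 1.34. Gpr37 is an oligodendrocyte gene, at 148 CPM in oligodendrocyte nuclei and at 30.4 ± 7.19 CPM in the members of stress RE mice.

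Between stress RE and NP the 10 genes of lowest p had adjusted p = 1.00 by edgeR. Lower in stress RE were Por, the reductase that serves cytochrome P450 enzymes, at 76.8 ± 13.9 CPM against 115 ± 16.5 CPM in NP, the secreted protease Htra1 at 240 ± 35.3 against 343 ± 55.5 CPM, the acyl-CoA thioesterase Acot11 at 134 ± 10.1 against 178 ± 18.5 CPM, Akap17b and Lzts2. Htra1 did not overlap between the groups, as was the case for 32 of 9832 genes (0.325%). Higher were Fundc2, Mrps35, Ppat, Rsl1d1 and S100a16, with group means of 4.20 to 31.4 CPM and log2 differences of 0.72 to 1.53. The log2 difference without the 5 libraries that stood apart was -0.63 for Por, -0.37 for Htra1 and -0.27 for Acot11. Of the 30 values named over the 3 comparisons, 29 could be tested without those libraries, and all 29 kept their sign and none shrank by over 1.5 times. Fundc2 was not tested there. The refit used mice that had also served to choose these genes by low p, and no share over all genes is given. The kept signs are thus no separate support for these differences. In oligodendrocyte nuclei Lzts2 was at 86.6 CPM, Rsl1d1 at 35.5 CPM and S100a16 at 26.0 CPM, above their means in members of either group. Between stress RE and NP the oligodendrocyte genes were positive in 8 of 8 (median 0.18), but with those libraries left out they were negative in 8 of 8 (median -0.39). The microglial genes were positive in 3 of 4 (median 0.30) and then negative in 4 of 4 (median -0.78, 2 with an unadjusted p under 0.05, against 3.39% of all genes). The thalamic neuron genes were negative in 4 of 7 (median -0.01) and then in 7 of 7 (median -0.47). The part of these markers in the differences was not tested.

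No list held a called gene in any comparison. Of the genes of regional identity, all 10 diencephalic genes tested had a negative log2 difference between control RE and NP (median -0.44) and also between stress RE and NP (median -0.19), and 4 of them, Agt, Irx2, Zic4 and Otx2, had an unadjusted p under 0.05 in the former (5.87% of all genes). Of the telencephalic genes 5 were tested, and 3 were positive between control RE and NP (median 0.26), with an unadjusted p under 0.05 for 2 of the 5. Their median was 0.46 without the 5 libraries that stood apart, again with 2 of the 5 under that p (6.07% of all genes). Agt was at 75.3 ± 18.5 CPM in control RE, 98.5 ± 21.4 CPM in stress RE and 122 ± 39.3 CPM in NP mice. The list summed to 898 to 1084 CPM in control RE, 916 to 1202 CPM in stress RE and 1097 to 1389 CPM in NP mice. Ion and water genes were negative in 11 of 16 between control RE and NP (median -0.15), where 5 genes, among them Mlc1, Gja1, Atp1b2 and Kcnj10, had an unadjusted p under 0.05 (5.87% of all genes). They were also negative in 11 of 16 between stress RE and NP (median -0.18), with 4 under that p (3.22% of all genes). GABA genes were negative in 9 of 14 between control RE and NP (median -0.10) and in 6 of 14 between stress RE and NP (median 0.03). The GABA list holds 1 gene of the rule. Of the 17 general astrocyte markers, 15 were negative between control RE and NP (median -0.20) and 12 positive between stress RE and control RE (median 0.12), and 6 and 4 of them had an unadjusted p under 0.05 (5.87% and 4.47% of all genes). This list includes Slc1a2, Slc1a3 and Gpc5, genes of the gate, so its counts rest in part on the rule's own genes. Clock genes were negative in 11 of 15 between control RE and NP (median -0.16) and in 12 of 15 between stress RE and NP (median -0.21), and cholesterol and lipoprotein genes in 9 of 15 and 10 of 15 (medians -0.10 and -0.06). With the 5 libraries that stood apart left out, 9 of 10 diencephalic genes were negative between control RE and NP (median -0.56) and 8 of 10 between stress RE and NP (median -0.16). The ion and water genes were then negative in 14 of 16 and the general astrocyte markers in 15 of 17 between control RE and NP. Between stress RE and NP the ion and water genes were then negative in 12 of 16 (median -0.13). Of these 16, 1 had an unadjusted p under 0.05 (3.39% of all genes). The median of the clock genes between stress RE and NP went from -0.21 to -0.02, with 9 of 15 negative. Slc6a11 was at 1614 ± 190 CPM in NP, 1366 ± 87.3 CPM in control RE against 1533 ± 82.5 CPM in stress RE mice, but as a gene of the rule it gives no test.

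Oxtr, Esr1, Prlr and Pgr, receptors for hormones of reproduction, were scarce in members. Of the 9 listed steroid, prolactin and oxytocin receptors, 3 were at 20 CPM or more in either type. The 3 that were tested were all positive between stress RE and NP (median 0.16), 1 with an unadjusted p under 0.05 (3.22% of all genes). Between control RE and NP 2 of the 3 were negative (median -0.03). Oxtr had no UMI in 2707 members, which allows a share of members with a UMI of up to 0.111%. Esr1 was at 2.03 ± 2.12 CPM, Prlr at 7.77 ± 9.00 CPM and Pgr at 6.87 ± 4.04 CPM over the 15 mice, levels close to those in oligodendrocyte nuclei, which were 1.68, 8.56 and 10.7 CPM. The dopamine receptors Drd1 and Drd2 were at 1.70 ± 1.88 and 1.95 ± 3.17 CPM, against 2.78 and 4.36 CPM in oligodendrocyte nuclei. These levels cannot be told from free RNA at this depth. The alpha-1A adrenoceptor Adra1a was at 131 ± 22.8 CPM in members and 8.90 CPM in oligodendrocyte nuclei.

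Whether the groups differed otherwise in members than in Gldc-type nuclei was tested by the interaction of group and type, with the mouse as a block, in edgeR over 12218 genes. No gene passed in any comparison (0% of genes), and unadjusted p was under 0.05 for 476 genes (3.90%) between control RE and NP, 459 (3.76%) between stress RE and control RE and 493 (4.04%) between stress RE and NP. The interaction was -0.32 on the log2 scale for Kcnj10 (adjusted p = 1.00) and -0.63 for Fkbp5 (adjusted p = 1.00), and a difference between the types in these effects was not detectable with these mice. These fits used all 15 mice. Leaving out control RE mouse 66, the interaction called 1 gene between control RE and NP, the choroid plexus transcript Ttr (log2 interaction 4.56, edgeR adjusted p = 0.00461, against 3.46 with all mice), and leaving out any other single mouse it called none in the 3 comparisons. With the 5 libraries that stood apart left out, it called 1 gene, the myosin Myo1d, between stress RE and control RE (log2 interaction -2.23, edgeR adjusted p = 0.0229, against -1.12 with all mice) and none in the other comparisons. Both genes are named after their values were seen.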

How the data were processed

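Nuclei of dHF tissue from 15 mice were profiled by droplet snRNA-seq, 1 library per mouse. The authors deposited filtered matrices of UMI counts for 32285 genes, made with Cell Ranger on mm10. The submitters' processing notes give version 7.1.0 and the file headers 7.0.0, and whether introns were counted is not given in the sources used here. Counts were taken as deposited and summed per mouse over the nuclei of a type. Group differences were tested with edgeR 4.0.16 in R 4.3.3 (filterByExpr, TMM, quasi-likelihood test, all 3 groups in 1 fit, no covariate), with DESeq2 1.42.0 as an alternative, and shares with exact permutation tests over mice in scipy 1.17.1. The edgeR script was tested on simulated data, and the DESeq2 alternative was not. Clusters came from scanpy 1.11.5 (1000 variable genes, 15 principal components, 15 neighbours, resolution 0.5). Scrublet marked 0.8% of barcodes per 1000 of the library and its barcodes were kept except in an alternative. Oligodendrocyte nuclei, used to gauge free RNA, were chosen by UMIs of myelin genes, with at least 1 of Mog or Mag and under 10 of the astrocyte genes. A few genes of the lists are not reported here by name.

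Genes were named by rule: all with an adjusted p under 0.05 (the 10 largest differences in each direction where over 20 passed), or, where fewer than 5 passed, also the 5 lowest p-values in each direction; and between types the 15 largest mean log2 ratios in each direction at 20 CPM or more in the higher type with the same sign in every mouse. The members and the gene lists were chosen with earlier results of these data known. The labels name 1 sample per mouse, so p-values measure the spread between mice. Intervals, and limits given for a count of 0, cover counting error only. Positions come from GENCODE on GRCm38. Alternatives were another tool, size factors, no filter on low counts, batch, stricter membership, doublets removed, equal numbers of nuclei, thinning to 1500 UMIs, other denominators and leaving out each mouse. The alternatives that leave out the libraries that stood apart, or give them a term of their own, restrict the fit to batches 2 and 3, take both types as the denominator, leave out nuclei with a UMI of Pdgfra, Cspg4 or Neu4, or use a pseudocount of 5 CPM were added after seeing the data.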

Additional observations from a re-analysis of the deposited data

Results flagged for a closer look

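Of 111 groups of values examined, 7 held a mouse far from the others of its group by Dixon's criterion, and chance flags about 1 in 20 groups. The share of members among gated nuclei was 11.6% in NP mouse 35, where the next NP mouse was at 25.5%, and 9.71% in stress RE mouse 77, where the next stress RE mouse was at 20.4%. Both mice are in batch 2, and mouse 77 is one of the 5 libraries that stood apart. Among gene levels in members, AW011738 was at 2.17 CPM in control RE mouse 88, with the next mouse at 11.4 CPM, and Plpp3 was at 667 CPM in the same mouse, with the next at 744 CPM. Acot11 was at 219 CPM and the kainate receptor gene Grik3 at 71.5 CPM in control RE mouse 87, with the next mice at 166 and 39.1 CPM. Por was at 101 CPM in stress RE mouse 75, with the next at 76.0 CPM.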

How the results depend on the processing

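No paired analysis was possible because the groups share no replicate numbers in the labels, which tie mice of different groups by batch alone, and batch was used as a term or a stratum instead. The difference in the share of members between control RE and NP was -11.4 percentage points without NP mouse 35 (range without each mouse in turn -11.4 to -6.03), and for stress RE against NP the range was -9.44 to -4.04, the lowest again without mouse 35. For stress RE against control RE the range was -0.498 to 4.39, negative without control RE mouse 72, and with all barcodes as the denominator the difference was -0.105 points. The correlation with Tcf7l2 and Slc17a6 nuclei was -0.340 within batch 3, 0.379 with both types as the denominator, 0.477 without the libraries that stood apart and 0.443 to 0.622 without each mouse in turn, no longer past the threshold without mouse 63 (0.519), 88 (0.522) or 77 (0.443). DESeq2 called 1 gene, Kcnj10, between control RE and NP. Without a filter on low counts, 12 genes were called between control RE and NP, 1 (Cntn5) between stress RE and control RE and 1 (Nwd2) between stress RE and NP, over 22383 genes, and batches 2 and 3 alone with batch as a term called 1 (Zbtb16) between stress RE and control RE. Without each mouse in turn, 0 to 0 genes were called. The interaction with type called 38, 11 and 20 genes without a filter in the order control RE against NP, stress RE against control RE and stress RE against NP, and 0 to 1 for the first when each mouse was left out, 1 (Ttr) without control RE mouse 66, and 1 (Myo1d) for the second without the libraries that stood apart. The cause of these changes was not tested. The remaining values of these results, 202 in all, kept their direction and their side of the threshold, as did 718 values of single named genes, while 6 of the latter passed the threshold under an alternative. Members gave 288300 UMIs in the mouse with fewest, and genes at a few CPM rest on few UMIs.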

Other observations

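The genes with the largest log2 differences, whatever their p, showed how unevenly some transcripts were spread over the members of single mice, and they were chosen after their values were seen. Nwd2 was at 199.9 CPM in NP mouse 31, 192 CPM in NP mouse 63 and 69.2 CPM in NP mouse 27, while the other 3 NP mice were at 18.9 to 29.4 CPM. It was at 2.28 to 30.7 CPM in control RE and 6.65 to 43 CPM in stress RE mice, so the high values belonged to NP mice of batches 1 and 2. Its log2 difference was -2.03 (SE 0.65, edgeR adjusted p = 0.814) for control RE against NP and -2.09 (SE 0.62, edgeR adjusted p = 1.00) for stress RE against NP. Ttr, which encodes transthyretin and is the leading transcript of the choroid plexus, was at 449 CPM in control RE mouse 72 and 156 CPM in stress RE mouse 75, both among the 5 libraries that stood apart, and at 1.59 to 55.5 CPM in the other 13 mice. Taco1, a mitochondrial translation factor, was at 12.0 to 88.7 CPM in NP, 6.83 to 26.1 CPM in control RE and 16.6 to 35.0 CPM in stress RE mice, and the groups overlapped.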
